A study of Mus musculus with 16 samples.

Results

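Mouse neural crest stem cells primed towards mesenchyme were compared with the same kind of cells left unprimed, on 8 of the 16 expression arrays of the study. The members were chosen by their titles and cell type labels: 4 arrays titled Mesenchymal 1 to 4, of crest stem cells primed to mesenchyme, and 4 titled NCSCs 1 to 4, of crest stem cells that were not primed. The remaining 8 arrays, 4 of cells primed to glia and 4 of cells primed to neurons (titled Autonomic), shared the estimate of spread and served as a second point of reference. All 16 samples were labelled as neural crest and as primary mouse material grown in a medium for these stem cells, and primed samples had been treated with instructive growth factors. The factors and the length of exposure, the strain and stage of the embryos, and the independence of the replicate cultures are not stated in the labels. The p-values therefore reflect the spread among these arrays alone, and that spread may be technical.

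The neural crest is a transient population that leaves the dorsal neural tube and forms peripheral neurons, glia and pigment cells and, in the head and great vessels, connective tissue and smooth muscle. Signals of the TGF-beta family act through receptor kinases and SMAD transcription factors, and in cultured crest stem cells they are known to favour smooth muscle. A cell entering a mesenchymal course usually makes more fibrillar collagen and contractile actin, and loses crest factors such as Sox10 and the neurotrophin receptor Ngfr.

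Levels are given on the log2 scale of the deposited intensities, and a difference of 1 on that scale is 2-fold. Every array had a median level between 3.05 and 3.15. Levels near 3 are therefore those of a typical dim probe set, and signal over background was not measured here. Correlations between arrays were 0.922 to 0.943 within the mesenchyme-primed group, 0.94 to 0.949 within the unprimed group and 0.921 to 0.944 between them, and 0 pairs held identical values. RNA quality moved with priming: the 3' to 5' log2 ratio of the Gapdh control was 2.96 ± 0.222 (SD, n = 4) in mesenchyme-primed and 2.35 ± 0.187 in unprimed arrays, a difference of 0.61 (exact two-sided permutation test, p = 0.0286, the smallest p that 4 against 4 allows). The beta-actin ratio differed by 0.249 (exact permutation test, p = 0.0857, 2 controls tested). Xist, which female cells express, lay between 2.68 and 11.2 in mesenchyme-primed and between 6.39 and 10.5 in unprimed arrays. It was at 5.34, 2.61, 3.25 and 3.31 on glia-primed and 3.15, 10.4, 7.55 and 10.6 on neuron-primed arrays. Mesenchyme-primed replicates 1, 3 and 4 thus lay above every glia-primed array in Xist, and that comparison may also differ in sex. The part of either measure in the results was not tested beyond fits with it as a covariate. Mesenchyme-primed replicate 3 stood apart in connective tissue genes, as described with those genes.

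Few genes passed limma's test after adjustment over all genes, with 4 arrays in each group. Of 18194 genes, 3 rose (0.0165%) and 1 fell (0.0055%) at an adjusted p under 0.05, together 0.022% of the genes tested. The risers were Pmepa1, Sipa1l2 and Gpr17, and the gene that fell was Gins2. At an unadjusted p under 0.05 there were 1401 genes (7.7%), 572 higher (3.14%) and 829 lower (4.56%). The 8 arrays did not overlap for 1036 genes (5.69%), 438 higher (2.41%) and 598 lower (3.29%). The median difference of all genes was -0.01. It was -0.11 for genes above the median gene and -0.14 for genes above 5 in at least 4 arrays.

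Pmepa1 encodes a membrane protein that TGF-beta signalling induces and that in turn dampens SMAD signalling. Its level was 5.43, 3.95, 3.05 and 2.71 on the unprimed arrays and 7.54, 7.50, 8.26 and 9.04 on the mesenchyme-primed arrays. Every primed array lay above every unprimed one, and the dimmest unprimed array was at the level of a typical dim probe set. The rise was 4.30 (SE 0.54, adjusted p = 0.0203). The other probe sets of Pmepa1 were dimmer, with means of 4.15 and 2.69, and gave 0.83 and 0.32, so the size of the rise is uncertain while its direction was shared.

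Sipa1l2 belongs to a family of proteins that switch off the small GTPase Rap. Its level was 5.60, 4.58, 5.04 and 5.57 on unprimed arrays and 7.34, 7.52, 7.26 and 8.07 on mesenchyme-primed arrays. The groups lay far apart with little spread in either, and the rise was 2.35 (SE 0.35, adjusted p = 0.0465). Gpr17 is a G protein-coupled receptor best known from oligodendrocyte precursors. Its level was flat at 3.00, 3.12, 3.10 and 2.99 without priming and 4.36, 6.09, 4.78 and 5.04 after it. The unprimed values sat at the array medians, all 4 primed arrays were higher, and the rise was 2.02 (SE 0.30, adjusted p = 0.0465). Its size depends on the dim end of the scale: with 16 added to each value before log2 it was 1.06 and did not pass (adjusted p = 0.0795).

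Gins2 is a subunit of the GINS complex, which the replicative helicase needs to open DNA. Its level was 8.87, 8.88, 8.83 and 9.40 on unprimed arrays and 7.04, 7.02, 7.01 and 7.70 on mesenchyme-primed arrays. In both groups replicate 4 was the highest and the other arrays lay close together. The fall was -1.81 (SE 0.27, adjusted p = 0.0465), and the other Gins2 probe set gave -1.41. These calls stood close to the threshold. Leaving out 1 array gave 3 calls without unprimed replicate 2, neuron-primed replicate 3 or mesenchyme-primed replicate 4, and 0 to 2 without each of the others. Of those 3 calls, 1, 3 and 2 in that order were among the 4 called genes. None was left without unprimed replicate 3 or 4 or mesenchyme-primed replicate 2 or 3, where limma gave 1338, 1221, 1221 and 1213 genes at an unadjusted p under 0.05. With the Gapdh ratio as a covariate, chosen after seeing the data, Pmepa1 remained called (5.19, adjusted p = 0.0429) and was the only call.

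**Figure D1:**
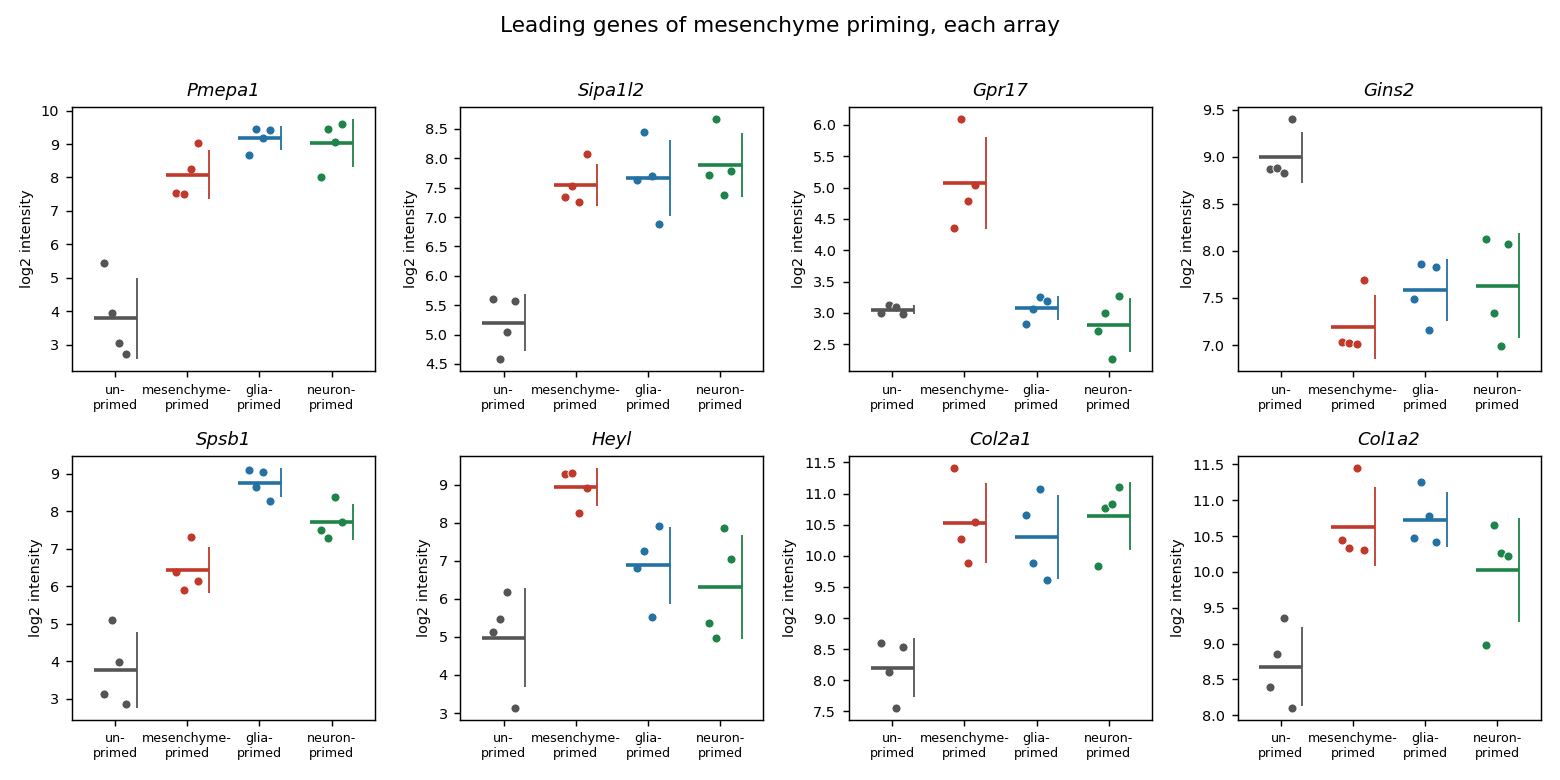
Log2 intensity of 8 leading genes on each array, by group (points are arrays, thick lines group means, thin bars 1 SD, n = 4). Pmepa1, Sipa1l2 and Gpr17 lie higher and Gins2 lower on all mesenchyme-primed arrays than on any unprimed array. Only Gpr17 and Heyl have their highest group mean in mesenchyme-primed cells.

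Among genes that respond to TGF-beta, 1 of 29 measured members rose (Pmepa1), 0 fell and 28 did not pass. Of their differences 23 lay above 0, with a median of 0.35, while 49.2% of all genes lay above 0 with a median of -0.01. The list holds feedback inhibitors, latent TGF-beta binding proteins and direct targets. Its mean level was 4.81, 4.82, 5.02 and 4.80 on unprimed arrays and 5.45, 5.14, 5.66 and 5.46 on mesenchyme-primed arrays. Pmepa1 is part of these means and adds to the gap, so they do not show a separation of the other members. Against glia- and neuron-primed cells the list's medians were -0.15 and -0.43. Spsb1, which encodes an adaptor of a ubiquitin ligase that acts on the type II TGF-beta receptor, came next after Pmepa1. Its level was 3.13, 5.10, 3.98 and 2.85 without priming and 6.38, 5.91, 7.31 and 6.15 with it. The groups did not overlap, but the difference of 2.67 (SE 0.44, adjusted p = 0.0723) did not pass. Its 3 other probe sets gave 2.16, 1.51 and 0.88.

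Other members of this list varied more between arrays. Ccn2, a secreted matricellular protein, had levels of 5.95, 4.75, 7.44 and 5.83 without priming and 7.24, 7.83, 7.29 and 7.79 with it. Unprimed replicate 3 overlapped the primed arrays, and the difference was 1.54 (adjusted p = 0.695). Skil, a SMAD co-repressor, gave 1.48 (adjusted p = 0.656), with unprimed replicate 2 the highest of the 8 arrays at 7.80. Thbs1, which activates latent TGF-beta, gave 1.20 (adjusted p = 0.652). At the low end were the integrin subunit Itgb5 at -1.25 and the latent TGF-beta binding protein Ltbp1 at -0.73.

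For the ligands, receptors and SMADs of the pathway, of 31 measured members 0 passed, 13 lay above 0 and the median was -0.08. Fst, the secreted activin antagonist follistatin, was the member farthest from 0. Its level was between 3.44 and 5.50 without priming and 7.30, 6.63, 6.29 and 6.73 with it. The 8 arrays did not overlap, yet the difference of 2.28 (SE 0.55) had an adjusted p of 0.281. Smad2, a receptor-activated SMAD, lay lower by -0.79 (adjusted p = 0.532), also with no overlap. The receptors Tgfbr1 and Tgfbr2 gave -0.72 and -0.61, the activin receptor Acvr1 gave 1.12 and the activin subunit Inhba gave 1.16, and none of these passed.

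The promoter of Sipa1l2, a called riser, is shown. RefSeq lists 2 promoters for this gene, and the first is printed. Its 250 bases before the start site, on the minus strand of GRCm38.p6 at chr8:125569864-125570113, follow, with the letters CAGAC (in reverse GTCTG), the core of a SMAD binding element, in capitals.
Sipa1l2: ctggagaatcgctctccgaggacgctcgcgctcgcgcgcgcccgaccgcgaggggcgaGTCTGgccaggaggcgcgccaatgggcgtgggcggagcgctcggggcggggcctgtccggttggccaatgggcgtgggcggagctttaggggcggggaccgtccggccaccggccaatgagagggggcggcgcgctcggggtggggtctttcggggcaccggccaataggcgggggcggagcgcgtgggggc
It held 1 match, 192 bases before the start site. Over the same length the promoter of Spsb1 held 0 matches and that of the collagen gene Col1a2 held 1. The same letters, on either strand, were found in 42.2% of all 32851 promoters of this length, in 8 of 20 promoters of TGF-beta response genes (40%) and in 10 of 23 of collagen genes (43.5%), so the motif was about as common in these lists as everywhere. The match in Sipa1l2 is a description of letters, not a binding site.

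Collagen genes encode the fibres and sheets of connective tissue, and their values depended on 1 array. Of 29 measured members 0 passed the test, 23 lay above 0 and the median was 0.30. Arrays did not overlap for 4 members, all higher, a share to be read against 2.41% of all genes. Mesenchyme-primed replicate 3 was the highest of the 8 arrays for 16 of the 29. Without it, 16 members lay above 0 and the median was 0.12. The mean level of the list was 3.94, 3.84, 4.68 and 3.80 on unprimed and 4.43, 4.16, 5.17 and 4.32 on mesenchyme-primed arrays, so that replicate 3 was the highest in each group and unprimed replicate 3 lay above 3 of the primed arrays.

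Col2a1, the main collagen of cartilage and also made by early neural tissue, had levels of 8.60, 8.13, 7.56 and 8.53 without priming and 11.41, 10.27, 9.89 and 10.54 with it. The groups were clearly apart, the highest value was that of replicate 1, and the difference was 2.32 (SE 0.40, adjusted p = 0.0823). Col1a2, a chain of type I collagen, had levels of 8.39, 8.86, 9.36 and 8.10 without priming and 10.44, 10.34, 11.45 and 10.30 with it. The groups did not overlap, the difference was 1.96 (SE 0.38, adjusted p = 0.113), and it was 1.68 without mesenchyme-primed replicate 3. The other Col1a2 probe sets gave 1.75 and, at a mean of 2.89, 0.35. Col1a1, the other chain of type I collagen, had levels of 4.47, 3.57, 7.62 and 3.72 without priming and 6.91, 6.66, 11.56 and 7.16 with it. Replicate 3 was far above the rest in both groups, and the unprimed replicate 3 overlapped the primed arrays. The difference of 3.23 (SE 1.09, adjusted p = 0.506) did not pass and was 2.06 without mesenchyme-primed replicate 3. Col3a1 gave 0.49 and the basement membrane chains Col4a1 and Col4a2 gave 0.99 and 0.49.

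Matrix glycoproteins and remodelling enzymes had 0 of 45 members past the test, 30 above 0 and a median of 0.22, which turned to -0.06, with 20 above 0, without mesenchyme-primed replicate 3. Postn, a matrix protein of periosteum and developing valves, had levels of 6.54, 5.97, 4.45 and 5.41 without priming and 7.07, 7.97, 9.42 and 7.15 with it. The arrays did not overlap, replicate 3 was the highest, and the difference was 2.31 (SE 0.79, adjusted p = 0.518). It was 1.80 without that array. Mean Postn levels were 9.23 in glia-primed and 8.20 in neuron-primed cells, against 7.90 in mesenchyme-primed cells. Bgn, a small proteoglycan, was at 10.23 on mesenchyme-primed replicate 3 and between 4.33 and 5.90 on the other primed arrays, within reach of the unprimed 3.89 to 5.40. The collagen-modifying enzymes P4ha1 and Plod2, which are also induced by low oxygen, gave 1.80 (adjusted p = 0.525) and 1.76 (adjusted p = 0.537). Nid2, a basement membrane linker, lay lower at 4.14, 4.95, 5.21 and 5.93 against 6.29, 6.41, 7.08 and 6.82. Its groups did not overlap, but the difference of -1.59 had an adjusted p of 0.481.

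Smooth muscle contractile genes were not called. Of 31 measured members 0 passed, 20 lay above 0 and the median was 0.23, or 0.06 without mesenchyme-primed replicate 3. Against glia- and neuron-primed cells the median was -0.33 and -0.06. Acta2, the smooth muscle actin that is the usual marker of this fate, had levels of 6.29, 5.49, 6.85 and 3.62 without priming and 5.20, 6.83, 9.30 and 6.71 with it. The groups overlapped broadly, and 1 primed array lay below 3 of the unprimed ones. The difference was 1.45 (SE 0.87, adjusted p = 0.745), it was 0.69 without mesenchyme-primed replicate 3, and the other Acta2 probe sets, both dim, gave -0.11 and -0.29. Tagln, an actin-binding protein of smooth muscle, had levels of 8.27, 7.21, 8.66 and 6.48 without priming and 8.41, 8.88, 8.22 and 9.18 with it. Its difference was 1.02 (adjusted p = 0.717), and all 4 glia-primed arrays, at 9.78 to 10.23, were above all mesenchyme-primed ones. Myl9, a myosin light chain, gave 1.31 (adjusted p = 0.546), with levels of 8.90 to 10.42 after priming against 7.59 to 9.17.

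The markers of mature smooth muscle were dim in unprimed and mesenchyme-primed cells. Cnn1, or calponin, had levels of 3.44, 2.93, 2.98 and 4.03 in mesenchyme-primed and 3.38, 2.26, 2.82 and 3.05 in unprimed cells, and Myh11, the smooth muscle myosin heavy chain, lay between 3.04 and 3.59 against 2.69 and 3.49. Neither exceeded the array medians by much, and their differences were 0.47 (adjusted p = 0.804) and 0.10 (adjusted p = 0.977), the latter turning to -0.08 under centring on housekeeping genes. Cnn1 was at 3.50 to 4.43 in glia-primed and 3.61 to 5.14 in neuron-primed cells, differences of -0.67 (adjusted p = 0.775) and -1.20 (adjusted p = 0.263), and Myh11 reached 5.51 on glia-primed replicate 3. Myocd, the coactivator that drives the smooth muscle programme, was at means of 2.7 and 2.5. Of the smooth muscle genes named here, Cnn1, Myh11 and Myocd were thus dim and Acta2 varied between arrays, while Tagln and Myl9 were bright in both groups. The group is called mesenchyme-primed after its label.

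**Figure D2:**
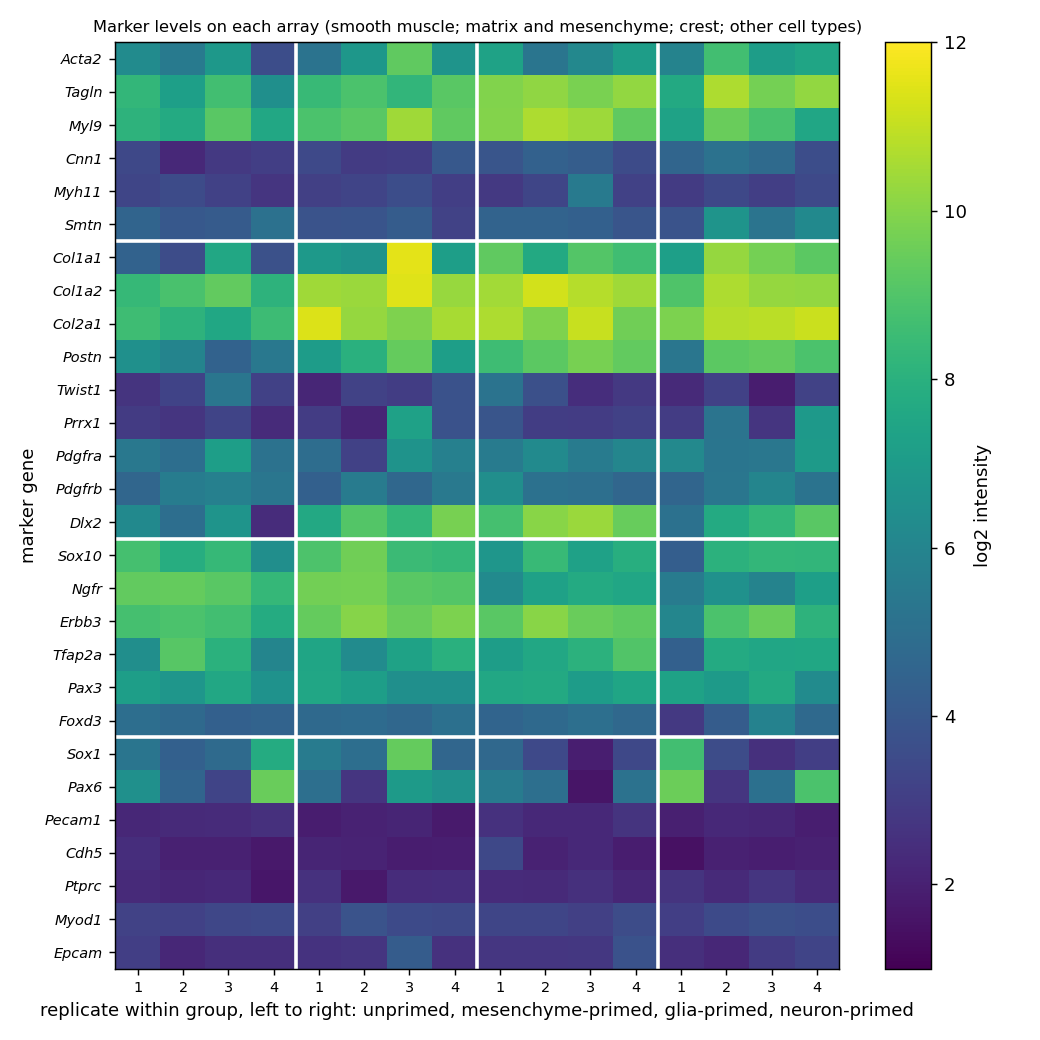
Log2 intensity (colour) of marker genes in rows on each array in columns, in 4 blocks of 4 replicates, with horizontal lines between smooth muscle, matrix and mesenchyme, crest and other cell type markers. Col1a1 and Prrx1 are brightest on mesenchyme-primed replicate 3, Cnn1 and Myh11 stay dim in both groups, and Ngfr is bright in unprimed and mesenchyme-primed cells and dimmer after glia or neuron priming.

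Transcription factors of mesenchyme had 0 of 44 members past the test, 27 above 0 and a median of 0.10, which was -0.08 under centring on housekeeping genes. Dlx2, a homeobox gene of branchial arch crest, had the largest difference of the list. Its level was 6.23, 4.99, 6.71 and 2.41 without priming and 7.64, 9.04, 8.29 and 9.75 with it. No primed array fell within the unprimed range, but that range was wide, and the difference of 3.60 (SE 0.92) had an adjusted p of 0.315. Dlx2 had means of 9.65 in glia-primed, 8.68 in mesenchyme-primed and 7.57 in neuron-primed cells. Its neighbour Dlx1 was dimmer, at 3.50, 2.16, 2.93 and 2.15 against 4.22, 3.71, 4.09 and 6.02, with a difference of 1.83 (adjusted p = 0.425). Prrx1, a factor of limb and head mesenchyme, was at 7.30 on mesenchyme-primed replicate 3 and between 2.16 and 3.77 on the other 3. Its difference was 1.23 with that array and 0.14 without it. Twist1, which most crest mesenchyme expresses, was dim at 2.17 to 3.76 after priming and 2.66 to 5.32 before.

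Surface markers of fibroblasts and pericytes had 0 of 21 members past the test, 17 above 0 and a median of 0.17, or -0.01 under that centring. Pdgfra and Pdgfrb, the platelet-derived growth factor receptors of mesenchymal cells, gave -0.56 and -0.32. Thy1 was at 7.82 and S100a4 at 6.59 on mesenchyme-primed replicate 3, against 2.64 to 2.91 and 1.64 to 3.26 on the other primed arrays. Their differences were 1.44 and 1.68 with that array and 0.18 and 0.60 without it. Cartilage, bone and fat markers had 0 of 27 past the test and a median of 0.07. Sox5, a partner of Sox9 in cartilage and also a crest gene, gave 0.97 (adjusted p = 0.523), while Sox9 itself gave -0.57.

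No crest identity gene passed the test in either direction. Of 34 measured crest progenitor genes 0 passed, 17 lay above 0 and the median was 0.00. Sox10, the factor that maintains crest stem cells and glia, had levels of 8.74, 7.85, 8.39 and 6.44 without priming and 8.91, 9.63, 8.50 and 8.33 with it. The ranges overlapped, with unprimed replicate 4 the lowest, and the difference was 0.99 (SE 0.77, adjusted p = 0.809). Sox10 has further probe sets, at 1.08 and 0.33. Ngfr, the p75 neurotrophin receptor used to isolate crest stem cells, was at 9.38, 9.39, 9.20 and 8.32 without priming and 9.64, 9.68, 9.18 and 9.06 with it. The ranges overlapped, with 2 primed arrays above every unprimed one and unprimed replicate 4 below every primed one, and the difference was 0.32 (SE 0.39, adjusted p = 0.891), with other probe sets at -0.60 and -0.06. Erbb3, the neuregulin receptor, gave 1.15 (adjusted p = 0.65). Foxd3 stayed between 4.37 and 5.05 on all 8 arrays. Yy1, a zinc finger regulator, was at 9.38, 8.90, 8.76 and 9.18 without priming and 8.76, 8.99, 9.32 and 9.13 with it, a difference of 0.00 (adjusted p = 0.999). The other Yy1 probe sets gave -0.35, -0.56 and 0.15.

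Sox8, the close relative of Sox10, differed more than the rest of the list. Its level was 4.71, 6.44, 5.18 and 4.69 without priming and 7.01, 7.16, 7.95 and 7.31 with it. The groups did not overlap, but the difference of 2.10 (SE 0.59) had an adjusted p of 0.357. At the other end were Zic1, a factor of the dorsal neural tube, at -2.08 (adjusted p = 0.687) and Myc at -1.44. Myc was at 8.67, 9.53, 8.57 and 8.27 without priming and 8.06, 7.46, 6.52 and 7.24 with it, with no overlap and an adjusted p of 0.532. Snai1 and Snai2, which drive the epithelial to mesenchymal transition, gave 0.79 and 1.05, and neither passed.

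Genes of the alternative crest fates did not pass either. Glia and Schwann cell genes had 0 of 30 called and a median of 0.02, autonomic neuron genes 0 of 28 and 0.05, general and sensory neuron genes 0 of 32 and -0.06, and melanocyte genes 0 of 18 and 0.02. L1cam, an adhesion molecule of neurons and Schwann cells, was at 6.97, 7.40, 7.10 and 6.90 after priming and 6.55, 5.63, 5.61 and 4.36 before, with no overlap and a difference of 1.55 (adjusted p = 0.526). Neurog2, the proneural factor of sensory neurons, was at 6.20, 4.88, 5.90 and 6.48 before and 4.61, 2.25, 5.34 and 2.70 after. Primed replicate 3 reached the unprimed range, and the difference was -2.14 (adjusted p = 0.379). Insm1 was at 7.30 on mesenchyme-primed replicate 3 and 4.43 on replicate 2, and between 2.26 and 2.63 on the other 6 arrays. Th, the rate-limiting enzyme of catecholamine synthesis, and the pigment genes Tyr and Dct stayed under 3 on all 8 arrays.

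Among the pathways that act beside TGF-beta, single genes stood out rather than lists. Heyl, a target of Notch signalling, had levels of 5.14, 5.46, 6.17 and 3.13 without priming and 9.29, 9.32, 8.25 and 8.90 with it. All primed arrays lay well above all unprimed ones, and the difference of 3.96 (SE 0.72) had an adjusted p of 0.0966. Its dimmer probe sets gave 1.33 and 0.51. The Notch list as a whole had 0 of 20 called and a median of 0.09, or -0.09 under centring on housekeeping genes. Notch3, the receptor typical of vascular smooth muscle, gave 1.04 (adjusted p = 0.526), with 1 primed array inside the unprimed range.

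Nkd2, an inhibitor of Wnt signalling, was at 9.59, 7.04, 9.25 and 10.26 after priming and 5.10, 4.79, 7.99 and 7.08 before. Replicate 2 of the primed group overlapped, and the difference was 2.80 (SE 0.83, adjusted p = 0.396). Sp5, a direct Wnt target, was dim at 3.94, 3.48, 3.41 and 2.79 before and 2.55, 2.55, 2.14 and 2.28 after, with no overlap and a difference of -1.02 (adjusted p = 0.228). The Wnt list had 0 of 31 called and a median of -0.08. BMP genes had 0 of 26 called and a median of 0.08, or -0.10 under that centring. Bmpr2, the type II BMP receptor, gave 1.18 (adjusted p = 0.525). FGF and ERK feedback genes had 0 of 29 called and a median of -0.15. Etv4, an ETS factor induced by FGF, was at 4.90, 6.47, 5.51 and 5.02 before and 4.56, 4.19, 4.55 and 3.94 after, a difference of -1.16 (adjusted p = 0.546) with no overlap. Igfbp3, an IGF binding protein, was at 6.50, 7.27, 7.45 and 5.03 before and 8.64, 8.08, 7.96 and 8.50 after. Its groups were apart and the difference was 1.73 (SE 0.49, adjusted p = 0.357).

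Cell cycle genes had more differences below 0 than above it in the lists of DNA replication and mitosis, with 1 call among them. DNA replication genes had 1 of 38 members that fell (Gins2), 0 that rose and 37 that did not pass. Of them 31 lay below 0, the median was -0.29, and 5 were lower with no overlap, against 3.29% of all genes. All genes above 5 in at least 4 arrays had a median of -0.14. Tk1, the thymidine kinase of S phase, had levels of 7.33, 6.44, 6.72 and 6.71 without priming and 5.12, 4.49, 5.54 and 4.86 with it. The groups were apart, but the difference of -1.80 (SE 0.37) had an adjusted p of 0.143. Pola1, the catalytic subunit of DNA polymerase alpha, was at 5.09, 5.07, 6.34 and 6.20 before and 3.28, 3.38, 3.39 and 4.53 after, a difference of -2.03 (adjusted p = 0.222), again with no overlap. The helicase subunits Mcm2 and Mcm3 were level, at 0.05 and 0.04.

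Mitosis genes had 0 of 34 past the test, 27 below 0 and a median of -0.36. Anln, a scaffold of the cytokinetic ring, gave -0.67 (adjusted p = 0.557), while Mki67, the usual proliferation antigen, stayed at 10.25 to 10.66 on all 8 arrays with a difference of 0.07. Cdk2 was at 5.71, 7.65, 6.29 and 6.43 before and 6.08, 4.96, 4.86 and 4.87 after, a difference of -1.32 (adjusted p = 0.453) with replicate 1 overlapping. Btg1, an antiproliferative gene, was at 9.09, 8.69, 8.45 and 9.34 before and 10.20, 9.95, 9.59 and 9.84 after, with no overlap and a difference of 1.00 (adjusted p = 0.532). After quantile normalization and cyclic loess the medians were nearer 0, at -0.18 and -0.14 for replication and -0.24 and -0.23 for mitosis. Centring on housekeeping genes lowers every difference by the same step and could not turn them. With 1 array left out they ranged from -0.40 to -0.23 for replication and from -0.43 to -0.27 for mitosis. With the deposited scaling, all genes above 5 in at least 4 arrays had a median of -0.14. In bulk RNA, fewer cells of a kind and less RNA per cell cannot be told apart.

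Early embryonic and retinoic acid genes had 0 of 26 members past the test, 19 below 0 and a median of -0.30. Nr6a1, an orphan nuclear receptor of early embryos, had levels of 9.33, 10.07, 9.04 and 9.32 without priming and 7.02, 7.16, 6.67 and 7.42 with it. The groups were tight and far apart, and the difference was -2.38 (SE 0.51), with an adjusted p of 0.168. The glia-primed arrays, which enter the shared spread, ranged from 4.62 to 7.57. Lin28a, an RNA-binding protein that blocks let-7, was at 9.85, 9.90, 9.51 and 9.56 before and 7.97, 8.66, 8.22 and 8.95 after, a difference of -1.26 (adjusted p = 0.575). Prtg, an adhesion protein of early embryos, was at 8.86, 9.02, 8.94 and 9.70 before and 8.31, 8.06, 7.85 and 7.65 after, a difference of -1.16 (adjusted p = 0.113). None of the 3 overlapped between the groups.

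Further genes with non-overlapping arrays came closest to the threshold without passing it. On the lower side were Cdkn2aipnl at -2.31 (adjusted p = 0.0712), the arginine methyltransferase Prmt7 at -1.40 (0.0723), the splicing factor Srsf5 at -1.51 (0.0823), the cold-inducible RNA-binding protein Cirbp at -2.06 (0.0823) and the zinc finger gene Zfp729b at -3.09 (0.0823). Cirbp was at 7.42, 7.56, 8.22 and 7.67 before and 6.21, 5.53, 5.60 and 5.28 after. Prmt7 was at 7.75, 6.82, 7.07 and 7.14 before and 6.01, 5.47, 5.94 and 5.74 after. The groups did not overlap for either gene, but the other Prmt7 probe sets, both dim, gave 0.68 and 0.21. The other Zfp729b probe set, at a mean of 3.30, gave -0.35. Ldb2, a LIM domain binding protein, gave -3.00 (0.0823) on a probe set that may match several transcripts and was at 2.85 on 1 unprimed array, and 0.18 on the brightest of the others. Hccs (-1.13), which attaches haem to cytochrome c, Zmat2 (-0.89), Jade1 (-2.23), the nucleolar protein Noc2l (-0.93), Kis2 (-1.22), Cabin1 (-1.62) and Rrp7a (-1.42) all had an adjusted p of 0.113, and a second Hccs probe set gave 0.52. The dimmer probe sets of Rrp7a gave 0.10 and 0.45. Other probe sets gave -0.44, -1.09 and -1.76 for Jade1, -0.29 for Noc2l and -0.81 and -0.44 for Cabin1. Kis2 was dim on all 8 arrays, at 1.98 to 3.90.

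On the higher side, Ephb3, a receptor of ephrin-B ligands, gave 1.31 (adjusted p = 0.107), with levels of 4.08, 3.55, 3.95 and 3.62 before and 5.51, 4.79, 4.96 and 5.17 after. Enc1, an actin-associated protein, gave 1.45 (0.113) and the small GTPase Rhob gave 1.33 (0.125). Rhob was at 9.77, 9.25, 10.08 and 9.05 before and 11.01, 11.02, 10.39 and 11.06 after, with replicate 3 the lowest of the primed group. Vegfa, the vascular growth factor, was at 5.46, 5.10, 5.05 and 5.76 before and 6.50, 6.57, 6.79 and 6.14 after, a difference of 1.16 (0.193). Its groups did not overlap. Sh2d5 (1.07), Spaca6 (1.06), Cdhr4 (1.34) and Insyn2a (0.86) also did not overlap, at adjusted p-values of 0.113 to 0.196. The first 3 of these were dim before priming, at means of 3.11, 3.35 and 2.59. A second probe set gave 0.40 for Vegfa, and dim second probe sets gave 0.04 for Sh2d5 and 0.18 for Cdhr4. Other probe sets gave 0.86 and 1.02 for Spaca6, 0.84 and 1.23 for Insyn2a and 2.39 and 1.45 for Enc1.

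The other lists held no called gene. Cytoskeleton and Yap target genes had a median of 0.18 over 30 members, IGF axis genes 0.04 over 23 and heat shock genes 0.02 over 20. Guidance and neurotrophin receptor genes had a median of -0.28 over 30, integrated stress response genes -0.20 over 26, YY1 partners -0.15 over 14, Hox genes -0.11 over 26 and housekeeping genes -0.05 over 17. G1 cyclins and CDK inhibitors had -0.14 over 23, which was 0.01 after cyclic loess. None of these medians was tested, and the median of all genes was -0.01. For genes above 5 in at least 4 arrays it was -0.14, and the medians of YY1 partners, Hox genes and G1 genes lay near that.

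**Figure D3:**
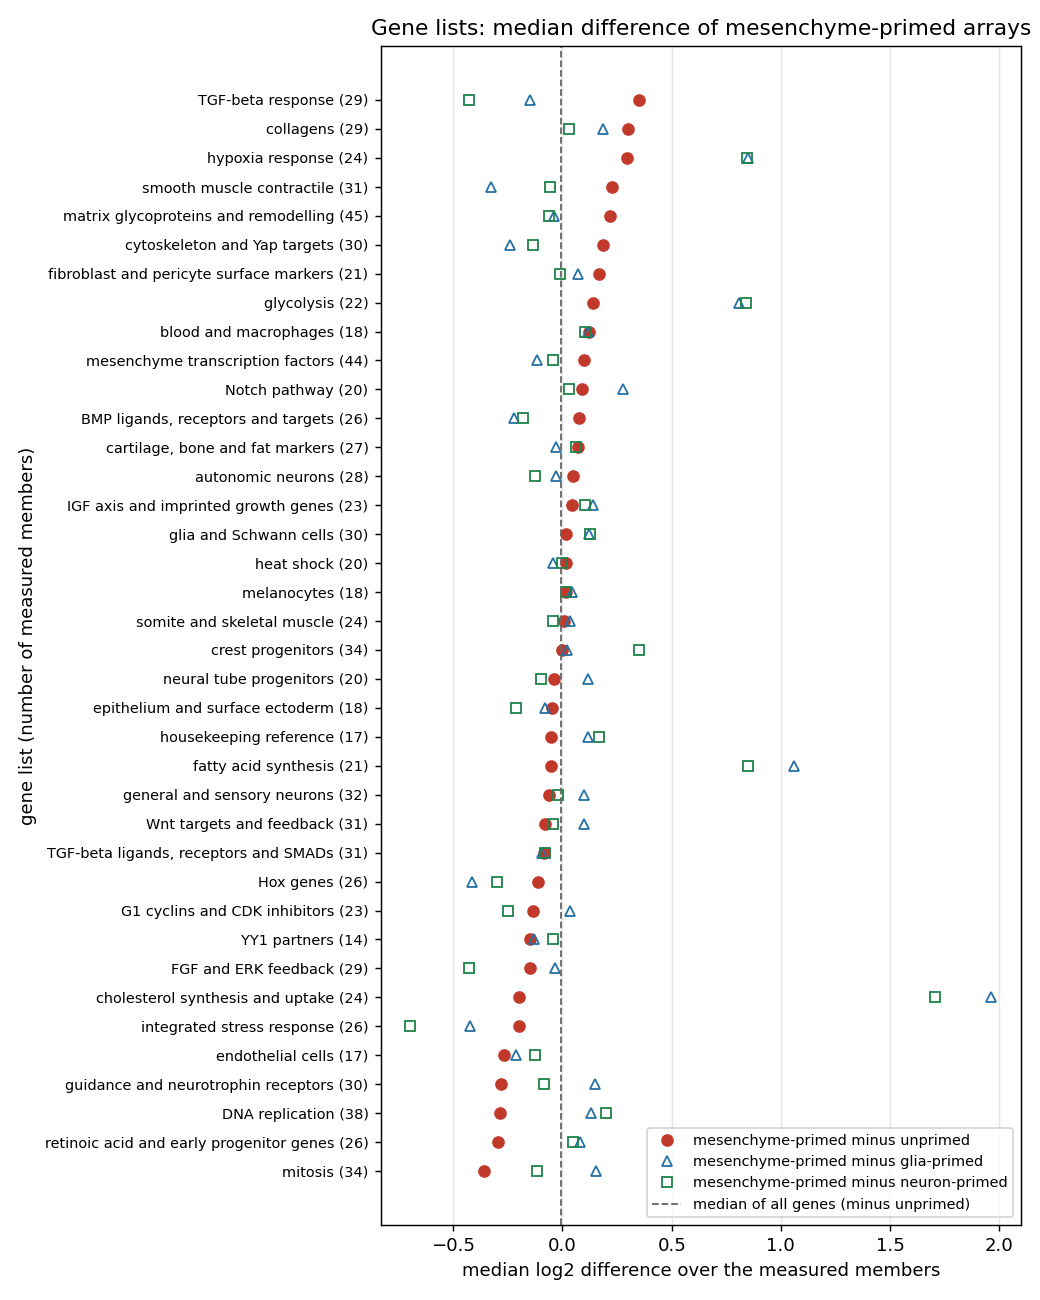
Median log2 difference of each gene list (number of measured members in brackets) for mesenchyme-primed minus unprimed (circles), minus glia-primed (triangles) and minus neuron-primed arrays (squares). The dashed line is the median of all genes. TGF-beta response, collagen and hypoxia genes have the highest medians of the first comparison, at 0.35, 0.30 and 0.30, and mitosis genes are lowest at -0.36. Cholesterol synthesis genes stand at -0.20 against unprimed but at 1.96 and 1.71 against glia- and neuron-primed cells.

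Genes of cholesterol synthesis were higher in mesenchyme-primed than in glia- or neuron-primed cells. Sterol enzymes turn acetyl-CoA through mevalonate, squalene and lanosterol into cholesterol, and SREBP factors with NF-Y drive their genes together. The comparisons with glia- and neuron-primed cells share the mesenchyme-primed arrays, so their values are given side by side and are not independent. Against glia-primed cells 41 of 18194 genes were called (0.225%), 28 higher (0.154%) and 13 lower (0.0715%) in mesenchyme-primed cells. Against neuron-primed cells 63 were called (0.346%), 38 higher (0.209%) and 25 lower (0.137%). Cholesterol genes made up 10 of the 28 and 8 of the 38, out of 24 measured, with medians of 1.96 and 1.71. Against unprimed cells 0 of the 24 passed, 20 lay below 0 and the median was -0.20.

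Mvd, the enzyme that makes isopentenyl diphosphate, had levels of 7.44, 8.23, 7.65 and 7.89 in mesenchyme-primed cells, 8.80, 8.56, 8.59 and 8.63 in unprimed, 5.02, 5.22, 5.11 and 5.77 in glia-primed and 5.23, 5.22, 5.40 and 4.37 in neuron-primed cells. Mesenchyme-primed arrays lay between the unprimed and the other primed arrays without touching either. The differences were 2.52 against glia-primed (adjusted p = 0.000773) and 2.75 against neuron-primed cells (adjusted p = 0.000185), and -0.84 against unprimed cells (adjusted p = 0.368). Lss, which closes squalene epoxide into lanosterol, was at 10.96, 11.32, 10.57 and 11.24 in mesenchyme-primed and 10.48 to 11.01 in unprimed cells. It was at 6.96 to 8.12 in glia-primed and 6.27 to 9.13 in neuron-primed cells, with differences of 3.34 (adjusted p = 0.00803) and 3.31 (adjusted p = 0.0053).

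Nsdhl, a sterol decarboxylating dehydrogenase, was at 7.35, 8.21, 8.14 and 7.52 in mesenchyme-primed cells, against 4.61 to 5.39 in glia-primed and 4.13 to 5.62 in neuron-primed cells. Insig1, the sterol sensor that holds SREBP in the endoplasmic reticulum and is itself an SREBP target, was at 8.75, 8.93, 9.11 and 9.56, against 5.94 to 7.31 and 5.74 to 7.26. Neither gene's mesenchyme-primed arrays overlapped those of the glia- or neuron-primed cells, and the adjusted p-values were 0.00116 and 0.00161 for Nsdhl and 0.00561 and 0.00356 for Insig1. Dhcr7, the last enzyme of the pathway, was higher by 3.31 than in glia-primed cells (adjusted p = 0.0163) and by 2.55 than in neuron-primed cells, where it did not pass (adjusted p = 0.0583). Sqle, Cyp51, Idi1 and Tm7sf2 were called in both comparisons, with differences of 1.56 to 2.56, while Pmvk, at 9.60 to 10.28 against 8.21 to 8.65 in glia-primed cells (adjusted p = 0.0196) and 8.60 to 9.44 in neuron-primed cells (adjusted p = 0.141), was called in the first. Abca1 and Abcg1, which export cholesterol, were dim, at means of 2.3 and 1.9 in mesenchyme-primed cells.

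Promoters of 4 of these genes are shown because the genes differed together. They are the 250 bases before the start site from RefSeq on GRCm38.p6, with CCAAT (in reverse ATTGG), the letters that NF-Y recognises, in capitals. They lie at chr8:122443423-122443672 (minus strand, Mvd), chr10:76531355-76531604 (plus strand, Lss), chrX:72918271-72918520 (plus strand, Nsdhl) and chr5:28071162-28071411 (plus strand, Insig1).
Mvd: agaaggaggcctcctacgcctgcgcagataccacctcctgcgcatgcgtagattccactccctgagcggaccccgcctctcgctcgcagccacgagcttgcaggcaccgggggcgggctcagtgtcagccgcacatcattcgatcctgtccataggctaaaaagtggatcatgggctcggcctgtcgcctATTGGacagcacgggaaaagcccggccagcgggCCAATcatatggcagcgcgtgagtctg
Lss: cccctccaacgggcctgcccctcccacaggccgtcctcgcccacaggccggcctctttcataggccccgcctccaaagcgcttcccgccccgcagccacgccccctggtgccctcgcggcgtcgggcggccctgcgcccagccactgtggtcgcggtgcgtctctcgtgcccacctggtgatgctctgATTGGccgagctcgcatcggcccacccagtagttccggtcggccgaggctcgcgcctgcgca
Nsdhl: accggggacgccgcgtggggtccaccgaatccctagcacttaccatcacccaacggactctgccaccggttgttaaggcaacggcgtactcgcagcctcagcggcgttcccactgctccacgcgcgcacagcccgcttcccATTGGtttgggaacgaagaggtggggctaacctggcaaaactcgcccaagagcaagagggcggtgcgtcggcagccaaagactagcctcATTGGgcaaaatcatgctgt
Insig1: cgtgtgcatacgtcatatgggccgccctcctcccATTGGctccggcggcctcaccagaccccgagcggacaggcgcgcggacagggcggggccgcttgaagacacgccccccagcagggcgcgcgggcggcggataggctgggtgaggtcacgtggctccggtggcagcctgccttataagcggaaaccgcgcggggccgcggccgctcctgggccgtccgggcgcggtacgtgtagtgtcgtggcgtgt
Mvd and Nsdhl held 2 matches each, and Lss and Insig1 held 1. The match farthest from the start site lay 60 bases before it in Mvd, 62 in Lss, 109 in Nsdhl and 216 in Insig1. The letters, on either strand, were in 16 of the 19 listed promoters of cholesterol genes (84.2%) and in 33.8% of all 32851 promoters. A sterol response element as spelt TCACNCCAC was in 1 of the 19 and in 1.05% of all promoters. Such matches describe letters and not bound sites.

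Genes of fatty acid synthesis, glycolysis and the hypoxia response also included called members. Of all genes, 0.154% were called higher than in glia-primed and 0.209% higher than in neuron-primed cells, with median differences of 0.0005 and -0.01. Fatty acid synthesis genes had 2 of 21 higher than in glia-primed and 2 than in neuron-primed cells, Scd1 and Scd2 in both, with medians of 1.06 and 0.85 and a median of -0.05 against unprimed cells. Scd2, a stearoyl-CoA desaturase, was at 10.63, 10.54, 10.76 and 10.70 in mesenchyme-primed and 7.58 to 8.90 in glia-primed cells, far below. Glycolysis genes had 3 of 22 and 5 of 22 higher, with medians of 0.81 and 0.84. Their median relative to unprimed cells was 0.14, and -0.04 under centring on housekeeping genes. Tpi1, triosephosphate isomerase, and Pfkl, the liver-type phosphofructokinase, were called in both comparisons, at 1.67 and 1.86 against glia-primed and 1.24 and 2.35 against neuron-primed cells. Slc2a3, a neuronal glucose transporter, was at 8.73 to 10.39 in mesenchyme-primed and 4.65 to 6.95 in glia-primed cells, a difference of 3.85 (adjusted p = 0.00916). Against neuron-primed cells it was 2.45 (adjusted p = 0.102).

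Hypoxia response genes had 3 of 24 higher than in each of the other primed groups, with medians of 0.85 and 0.84. The shares of all genes called higher were 0.154% against glia-primed and 0.209% against neuron-primed cells. Their median was 0.30 against unprimed cells, with 18 above 0 and 0 called. Ddit4, an inhibitor of mTORC1 induced by low oxygen and stress, was at 12.19, 11.34, 12.27 and 11.37 in mesenchyme-primed and 10.66, 9.97, 10.41 and 11.04 in unprimed cells. All primed arrays were higher, and the difference was 1.27 (adjusted p = 0.429). Against glia-primed cells, at 8.68 to 10.27, it was 2.20 (adjusted p = 0.0325). Pdk1, which keeps pyruvate out of mitochondria, and Ak4, a mitochondrial adenylate kinase, were called in both comparisons. Bnip3, a mitophagy receptor, was at 8.91, 8.68, 9.17 and 9.11 in mesenchyme-primed cells and 5.73, 3.66, 3.00 and 3.68 in neuron-primed cells, a difference of 4.95 (adjusted p = 0.0114), while glia-primed replicate 1 at 7.78 lay near the mesenchyme-primed arrays and the difference of 3.86 did not pass (adjusted p = 0.0672).

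**Figure D4:**
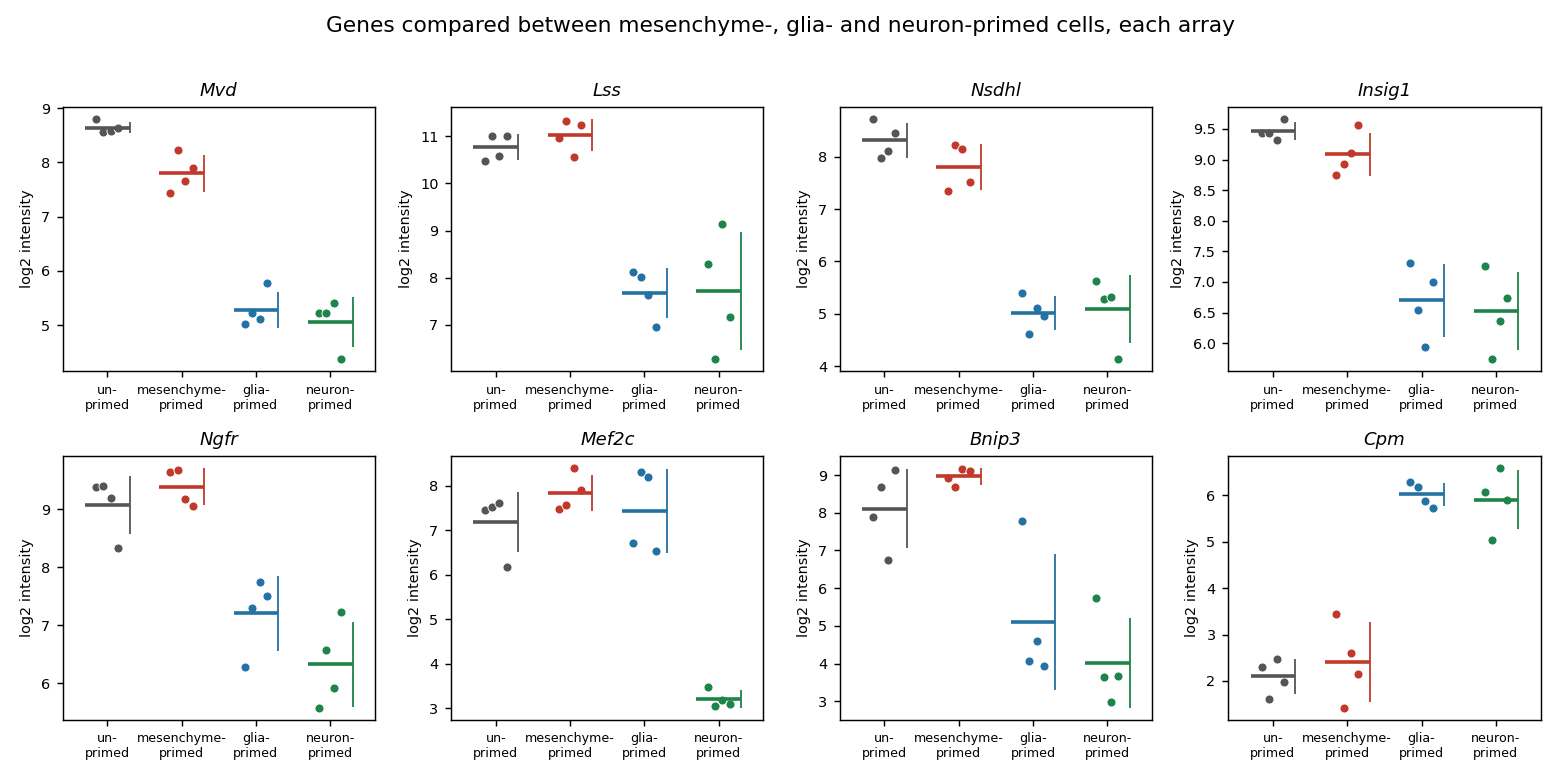
Log2 intensity of 8 genes on each array, by group (points are arrays, thick lines group means, thin bars 1 SD, n = 4). Sterol genes and Ngfr in mesenchyme-primed cells lie well above the glia- and neuron-primed cells, Mef2c is low in neuron-primed cells alone, and Cpm is low in unprimed and mesenchyme-primed cells.

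Of 34 crest progenitor genes, 1 was higher than in glia-primed cells (Ngfr), with 17 above 0 and a median of 0.02, and 3 were higher than in neuron-primed cells (Ngfr, Sox8 and Mycn), with 21 above 0 and a median of 0.35. Over all genes, 0.154% and 0.209% were called higher in these 2 comparisons. Ngfr, at 9.06 to 9.68 in mesenchyme-primed cells, was at 6.27, 7.29, 7.74 and 7.50 in glia-primed and 5.57, 6.58, 5.91 and 7.22 in neuron-primed cells, with differences of 2.19 (adjusted p = 0.0307) and 3.07 (adjusted p = 0.00356). Its dimmer probe sets gave 1.40 and 0.58 against glia-primed and 1.11 and 0.33 against neuron-primed cells. Sox8 was called against neuron-primed cells at 3.14 (adjusted p = 0.0324) and not against glia-primed cells at 2.16 (adjusted p = 0.255). Mycn, at 8.74 to 9.56, was higher than in neuron-primed cells by 2.21 (adjusted p = 0.00434). Sox10 differed by 1.25 and 1.62 and did not pass.

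Of the 4 genes called against unprimed cells, Gpr17 alone also passed against both other primed groups. Its level was 2.82, 3.06, 3.25 and 3.19 in glia-primed and 2.70, 3.00, 2.26 and 3.26 in neuron-primed cells. Those arrays lay near the array medians like the unprimed ones, and the mesenchyme-primed arrays were higher by 1.99 (adjusted p = 0.0129) and 2.26 (adjusted p = 0.00378). Sh2d5 was higher than in neuron-primed cells by 1.36 (adjusted p = 0.00942), on a dim probe set that may match several transcripts. The second Sh2d5 probe set, at a mean of 1.88, gave 0.11. Pmepa1 was at 8.66 to 9.45 in glia-primed and 8.01 to 9.59 in neuron-primed cells, so its differences of -1.09 and -0.94 did not pass, and those of Sipa1l2 were -0.11 and -0.34 and those of Gins2 -0.40 and -0.44. Spsb1, at 9.11, 8.65, 9.03 and 8.27 in glia-primed cells, was lower in mesenchyme-primed cells by -2.33 (adjusted p = 0.0493). That call was kept in 15 of 31 alternatives and lost on leaving out any 1 of 11 arrays (adjusted p up to 0.153). Against neuron-primed cells the difference was -1.29 (adjusted p = 0.382). Among BMP targets, Id3 was lower than in glia-primed cells by -1.50 (adjusted p = 0.0177).

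Cpm and Dhrs3 were lower in mesenchyme-primed cells than in each of the other primed groups. Cpm, a membrane carboxypeptidase, was at 3.45, 1.42, 2.61 and 2.15 in mesenchyme-primed cells, near its 1.62 to 2.48 in unprimed cells. It was at 6.28, 6.18, 5.88 and 5.73 in glia-primed and 6.07, 5.04, 6.59 and 5.91 in neuron-primed cells, with differences of -3.61 (adjusted p = 0.000854) and -3.50 (adjusted p = 0.00145). Dhrs3, which reduces retinal and is induced by retinoic acid, was at 3.33, 4.64, 3.93 and 4.07, against 6.45 to 7.74 and 6.73 to 8.17. Its differences were -3.08 (adjusted p = 0.00196) and -3.26 (adjusted p = 0.00145), and it also lay below the unprimed 4.79 to 5.57 (-1.12, adjusted p = 0.481). Rdh10, which makes retinal from retinol, was higher than in glia-primed cells by 3.13 (adjusted p = 0.00418). Chst15, a chondroitin sulfotransferase, was lower than in glia-primed cells by -2.45 (adjusted p = 0.0307). Its second probe set, dim at a mean of 2.40, gave -0.24.

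Against neuron-primed cells, Mef2c, a MADS box factor of muscle, neurons and crest, had the clearest gap. Its level was 7.49, 7.57, 8.40 and 7.91 in mesenchyme-primed, 7.45, 7.54, 7.61 and 6.18 in unprimed and 3.49, 3.06, 3.19 and 3.09 in neuron-primed cells. The neuron-primed arrays sat at the array medians, and the difference was 4.63 (adjusted p = 0.000185). Cers4, a ceramide synthase, was higher by 4.08 (adjusted p = 0.0145) and Vgf, a secreted neuronal peptide precursor, lower by -5.41 (adjusted p = 0.00825). The other Cers4 probe sets, dim at means of 2.90 and 2.70, gave 0.80 and 0.53. Vgf was at 9.99, 9.44 and 8.40 on neuron-primed replicates 2 to 4 and 5.57 on replicate 1, against 2.52 to 3.43 in mesenchyme-primed cells. Mmp9, a gelatinase, was lower by -3.30 (adjusted p = 0.0209). Asns, asparagine synthetase, and Slc3a2, an amino acid transporter chain, both ATF4 targets, were lower by -1.22 (adjusted p = 0.00558) and -1.70 (adjusted p = 0.0203). Asns was also lower than in glia-primed cells by -0.96 (adjusted p = 0.0381), a call kept in 13 of 31 alternatives and lost on leaving out any 1 of 12 arrays. Integrated stress response genes had medians of -0.42 and -0.70 against the 2 groups and -0.20 against unprimed cells.

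These counts moved with single arrays. The count against glia-primed cells was 68 without neuron-primed replicate 1, and 14, 25 and 21 without mesenchyme-primed replicates 1 to 3 and 18 and 22 without glia-primed replicates 3 and 4. The count against neuron-primed cells was 141 without neuron-primed replicate 1, 37 and 41 without neuron-primed replicates 2 and 4, and 37 and 36 without mesenchyme-primed replicates 1 and 2. Centring on housekeeping genes moved the median of all genes to -0.367 and -0.208, and the split of calls to 11 higher and 41 lower against glia-primed and 22 and 34 against neuron-primed cells. It moved the median of all genes against unprimed cells to -0.185 and each list median down by the same step, so that list medians between 0 and 0.17 turned below 0.

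Markers of other cell types gave no called gene against unprimed cells. Endothelial markers had 0 of 17 called, with mean levels of 2.56 to 2.74 on mesenchyme-primed and 2.62 to 3.20 on unprimed arrays, and Pecam1 and Cdh5 stayed at 1.76 to 2.53. Blood and macrophage markers had 0 of 18 called, with mean levels of 2.53 to 3.25 and 2.49 to 3.10, and Ptprc at 1.65 to 2.55. Somite and skeletal muscle markers had 0 of 24 called, with mean levels of 2.83 to 3.32 and 2.89 to 4.05, and Myod1 at 3.08 to 3.81. Epithelial markers had 0 of 18 called and mean levels of 2.71 to 2.97 and 2.83 to 3.19. Some members were brighter. The simple epithelial keratins Krt18 and Krt19 were at 3.43 to 5.98 and 2.63 to 4.30 on mesenchyme-primed and at 5.99 to 6.98 and 4.38 to 6.27 on unprimed arrays. Tnnc1, a troponin of slow and heart muscle, was at 3.18 to 3.64 against 3.63 to 4.48, and Pax9, a factor of sclerotome and pharyngeal pouches, at 3.10 to 4.07 against 3.60 to 6.03. The part of such cells in the results was not tested. Neural tube progenitor markers had 0 of 20 called but varied between arrays, with means of 3.34 to 4.22 and 3.39 to 4.91. Sox1 was at 9.41 on mesenchyme-primed replicate 3 and 7.79 on unprimed replicate 4, against 4.36 to 5.60 on the other 6 arrays. Pax6 was at 9.49 on unprimed replicate 4 and 2.70 to 6.98 on the other 7 arrays. Mesenchyme-primed replicate 3 was thus high both in Sox1 and Insm1 and in Col1a1, Bgn, Thy1 and Prrx1, and the part of other cells in these values was not tested.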

How the data were processed

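Expression was measured on Affymetrix mouse arrays (45101 probe sets), 4 for each of 4 groups. The deposited table holds linear intensities, normalized by the authors with RMA per the submitters' processing notes, whose version is not given in the sources used here; scanner files were not used here. Values were put on the log2 scale. Of the probe sets, 34958 had 1 gene symbol, 932 several and 9211 none, and 34754 symbols (99.4%) were updated by Entrez number. Each of 18194 genes was represented by its brightest probe set (mean of the 16 arrays), chosen among several for 9012 genes.

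A group-means model over all 16 arrays (12 residual degrees of freedom) was fitted with limma 3.58.1 in R 4.3.3, with Benjamini-Hochberg adjustment over all genes and a threshold of 0.05. It was tested on simulated data. The 38 gene lists hold 1060 entries, of which 1000 were measured. Members and lists were chosen with earlier results of these data known. Named genes, 112 in all, were the 15 leading genes each way whose 8 arrays did not overlap, up to 4 called members of each list (or, with none called, the 2 of largest moderated t), 10 fixed markers, and the 3 largest called differences each way from the other primed groups; further list members were named after their values were seen. Alternatives covered scaling, filters, probe set choice, weights, covariates, a replicate block and each array left out. The number of arrays limits the precision. Same-numbered arrays of the compared groups did not deviate together (correlations of -0.0568 to 0.0262), so the numbers were not taken as pairs.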

Additional observations from a re-analysis of the deposited data

Results flagged for a closer look

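A sample stood far from the other 3 of its group in 21 of 300 values examined (7%), where chance flags about 1 in 20. The gap of that array, as a share of the group's range, exceeded Dixon's critical value for groups of 4 in each case. Mesenchyme-primed replicate 3 was the high array for Col1a2 (0.877), Tyrobp (0.867), Cers4 (0.854), the IGF axis list (0.943) and the autonomic neuron list (0.906), and the low array for Rhob (0.927), Krt19 (0.897) and Mitf (0.851). Mesenchyme-primed replicate 1 was high for Cdk2 (0.917) and the FGF and ERK list (0.851), replicate 2 low for Slc3a2 (0.854) and Chst15 (0.873), and replicate 4 high for Gins2 (0.958). Among unprimed arrays, replicate 3 was high for the collagen list (0.842) and the TGF-beta response list (0.916) and low for the autonomic neuron list (0.834). Unprimed replicate 4 was high for Gins2 (0.913) and low for Mef2c (0.891) and the G1 cyclin list (0.864), replicate 2 was high for Hccs (0.835) and replicate 1 low for Slc16a1 (0.902).

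Mesenchyme-primed cells differed from another primed group in 29 of 224 tests of named genes, by limma's adjusted p over all genes. Some of these genes were named because of such differences, so the count partly reflects how they were chosen. Over all genes 0.225% were called against glia-primed and 0.346% against neuron-primed cells. Against glia-primed cells the log2 differences were 3.85 for Slc2a3, 3.34 for Lss, 3.31 for Dhcr7, 2.52 for Mvd, 2.20 for Ddit4, 2.19 for Ngfr and 1.99 for Gpr17. On the lower side they were -3.61 for Cpm, -3.08 for Dhrs3, -2.45 for Chst15, -2.33 for Spsb1, -1.97 for Cdkn2aipnl and -0.962 for Asns. Against neuron-primed cells they were 4.95 for Bnip3, 4.63 for Mef2c, 4.08 for Cers4, 3.31 for Lss, 3.14 for Sox8, 3.07 for Ngfr, 2.75 for Mvd, 2.26 for Gpr17 and 1.36 for Sh2d5. The lower ones were -5.41 for Vgf, -3.50 for Cpm, -3.30 for Mmp9, -3.26 for Dhrs3, -2.08 for Cdkn2aipnl, -1.70 for Slc3a2 and -1.22 for Asns. Cdkn2aipnl against glia-primed cells was called in 10 of 31 alternatives, and its second probe set gave -0.24. Both comparisons use the same mesenchyme-primed arrays.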

How the results depend on the processing

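The count of 4 calls against unprimed cells became 2 after quantile normalization, 9 after housekeeping centring (2 higher, 7 lower) and 9 with array weights. Of the 9 after housekeeping centring, 2 were among the 4, and of the 9 with array weights, 4 were. The count became 1 with the most variable probe set, with a trended robust prior, with the Gapdh ratio as a covariate and with Xist as a covariate. The last 2 were chosen after seeing the data. None was called with log2 of value plus 16 or with only the 8 arrays compared, where limma gave 1338 and 1670 genes at an unadjusted p under 0.05. Leaving out 1 array gave 0 to 3 calls. Pmepa1 kept its call in 24 of 31 alternatives (adjusted p 0.00108 to 0.2), Sipa1l2 in 11 of 31, Gpr17 in 7 of 29 and Gins2 in 7 of 31, with no change of direction. The 41 calls against glia-primed cells became 62 with array weights and 21 with Xist as a covariate, and 14 to 68 with 1 array left out. Against glia-primed cells Ngfr kept its call in 19 of 31 and Ddit4 in 20 of 31, and against neuron-primed cells Sox8 in 19 of 31. The 63 against neuron-primed cells became 26 with only the 8 arrays compared, and 36 to 141 with 1 array left out. With the replicate number as a block there were 6 calls against unprimed cells, 3 of them among the 4, and 22 against glia-primed cells; same-numbered arrays share only a number. The Gapdh ratio difference was 0.552 to 0.71 with 1 array left out.

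Directions against unprimed cells turned mostly for genes near 0, and the cause was not tested. Without cross-matching probe sets they were 0.177 for Ldb2, -0.114 for Acta2 and 0.371 for Slc2a3. With the most variable probe set they were 0.523 for Hccs, 0.0401 for Sc5d, 0.272 for Fads1, -0.421 for Lss and 0.138 for Mmp9. With the Gapdh ratio as a covariate they were 0.00187 for Hspa4, 0.049 for Krt18, 0.262 for Yy1, -0.481 for Myh11, 0.0412 for Slc2a3, -0.267 for Lss and 0.485 for Vgf. With the mean of all probe sets they were -0.011 for Tfrc, -0.114 for Ngfr, 0.00926 for Slc2a3 and 0.0466 for Cers4. Yy1 was 0.127 after quantile normalization and 0.156 after cyclic loess, and Myh11 -0.0769 after housekeeping centring. With 1 array left out, Yy1 ranged from -0.102 to 0.107, Myh11 from -0.0501 to 0.218, Cpm from -0.0364 to 0.641, Slc2a3 from -0.484 to 0.0677 and Cers4 from -0.547 to 0.0703.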
